A study of Mus musculus with 10 samples.

Results

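The 9 genes described here encode receptors for the constant (Fc) part of antibodies and the proteins that carry their signal into the cell. They were chosen by symbol, as the entries of the deposited table named *Fcgr1*, *Fcgr2b*, *Fcgr3*, *Fcgr4*, *Fcgrt*, *Fcer1g*, *Tyrobp*, *Syk* and *Btk*, and all 9 were found among the 25233 genes with a symbol. Their RNA was measured in 10 libraries from C57BL/6J mice, 5 of hypertrophied hepatic stellate cells (hypHSCs) and 5 of quiescent hepatic stellate cells (qHSCs). The hypHSCs came from males fed the CDAHFD, which is rich in fat, has no choline and little methionine, and brings on fatty, inflamed and scarred livers. The mice of hypHSC 1 and 2 had eaten it for 13 weeks and were 19 weeks old, and those of hypHSC 3, 4 and 5 had eaten it for 12 weeks and were 18 weeks old. The qHSCs came from males on a standard diet, aged 36 weeks (qHSC 1, 2 and 5) or 34 weeks (qHSC 3 and 4). No transgene or antibody picked the cells: livers were digested, the cells floated on a density gradient and then sorted by the fluorescence of their vitamin A, green for hypHSCs and blue for qHSCs. Diet, age, enzyme dose, antibiotics and sorting gate all changed together between the groups and cannot be told apart. The hypHSC samples sequenced were picked for RNA integrity from more samples than mice, and since the mouse behind each library is not named, n counts preparations and p-values measure the spread between them.

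Fcγ receptors bind IgG on the surface of leukocytes. The activating ones (FcγRI from *Fcgr1*, FcγRIII from *Fcgr3*, FcγRIV from *Fcgr4*) have no signalling motif of their own and pair with the FcRγ chain, the product of *Fcer1g*, whose tail holds an immunoreceptor tyrosine-based activation motif (ITAM). DAP12, the product of *Tyrobp*, is a second ITAM adaptor and serves other myeloid receptors such as TREM2. Src family kinases phosphorylate the tyrosines of the ITAM, the kinase Syk docks there, and Syk with Btk passes the signal to adaptors and phospholipases. FcγRIIb, the product of *Fcgr2b*, carries the inhibitory counterpart (ITIM), which recruits phosphatases, and in the liver it is best known on sinusoidal endothelial cells and Kupffer cells, the resident macrophages. *Fcgrt* encodes the heavy chain of FcRn, a different kind of receptor that recycles IgG and albumin inside cells.

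The coding bases of these motifs show what is shared and what differs between the adaptors and the inhibitory receptor. They were read from the GRCm39 genome along the GENCODE canonical transcripts, 5′ to 3′ on the coding strand, and capitals mark the tyrosine codons and the codon of the leucine that stands 3 residues after each. *Fcer1g* (minus strand, chr1:171057458-171057641, across exons 4 and 5 of 5, residues 65 to 79 of 86) and *Tyrobp* (plus strand, chr7:30115095-30116807, across exons 4 and 5 of 5, residues 92 to 106 of 114) each hold 1 ITAM of the same spacing, split by an intron. *Fcgr2b* (minus strand, chr1:170788640-170788657, in exon 7 of 7, residues 270 to 275 of 293) holds the single tyrosine of an ITIM. The ITAM pattern had 0 matches in the other 7 genes.
Fcer1g ITAM: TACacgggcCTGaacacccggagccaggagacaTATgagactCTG
Tyrobp ITAM: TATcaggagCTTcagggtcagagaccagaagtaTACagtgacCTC
Fcgr2b ITIM: atcaccTACtcacttCTC

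Depth, as reads on genes with a symbol, was 30534719 to 43283589 for hypHSCs and 35640104 to 47317028 for qHSCs, and 3 reads, taken as the floor of detection, equal 2.25 to 4.54 normalized counts (reads divided by the size factor of the library). That floor covers counting error only, since amplified reads are not independent molecules. In bulk RNA, fewer cells of a type and less RNA per cell cannot be told apart. The labelled cell type was checked first. The 12 quiescent stellate cell markers, among them *Lrat*, *Des* and *Gfap*, summed to 1250343 to 2125327 normalized counts in qHSCs and to 30612 to 57452 in hypHSCs, and all 12 were lower in hypHSCs. The 14 core macrophage markers, led in the list by *Adgre1*, *Csf1r* and *Cd68*, summed to 1084283 to 1478187 in hypHSCs and to 5155 to 113806 in qHSCs, and all 14 were higher in hypHSCs, none being at 0 in that group. Among the qHSC libraries, qHSC 4 (113806) and qHSC 1 (52634) held far more macrophage marker RNA than qHSC 2, 3 and 5 (5155 to 11459.9). In hypHSCs, quiescent stellate cell markers were thus low and core macrophage markers high. No list of activated stellate cell markers was checked, so stellate identity as a whole was not tested. The paper reports *Acta2* and collagen genes as not deregulated, and desmin protein in sorted hypHSCs. After the gradient it saw no macrophage surface label on cells with fluorescent droplets, but it found more CD68 labelling on sorted hypHSCs than on qHSCs. The name "hypHSC" below stands for the libraries as labelled. Mitochondrial reads were 12.8% and 7.27% in hypHSC 1 and 2, 2.21% to 3.42% in hypHSC 3 to 5, and 1.25% to 1.61% in qHSCs. Reads without a gene symbol were also most frequent in hypHSC 1 and 2 (29.1% and 20.1%). In the values of the 9 genes, hypHSC 5, and to a smaller degree hypHSC 4, stood apart from hypHSC 1, 2 and 3. Each result is therefore also given where it rests on qHSC 1 and 4 or on hypHSC 5.

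Of the 9 genes, 8 were called higher and 1, *Fcgrt*, lower in hypHSCs, by limma over 14630 tested genes. A call meant a log2 fold change of 1 or more in size with an adjusted p no higher than 0.05. Calls were common in this comparison: 17.8% of all tested genes were called higher, 21.7% lower and 39.5% in either direction. The groups did not overlap for any of the 9, as for 39.5% of all tested genes. Scaling the libraries to the same total put 4224 of 6246 called genes lower, and scaling on *Hprt*, *Pgk1* and *Actb* 6989 of 8461, against 3177 of 5779 as deposited, without a change in the calls of the 9. The exact two-sided permutation p was 0.00794 for each gene, the smallest that 5 libraries against 5 allow. The log2 fold change of the 9 genes had a median of 5.41, against -0.20 over all tested genes. Without qHSC 1 and 4 the calls were still 8 higher and 1 lower, with a median of 6.61.

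**Figure D1:**
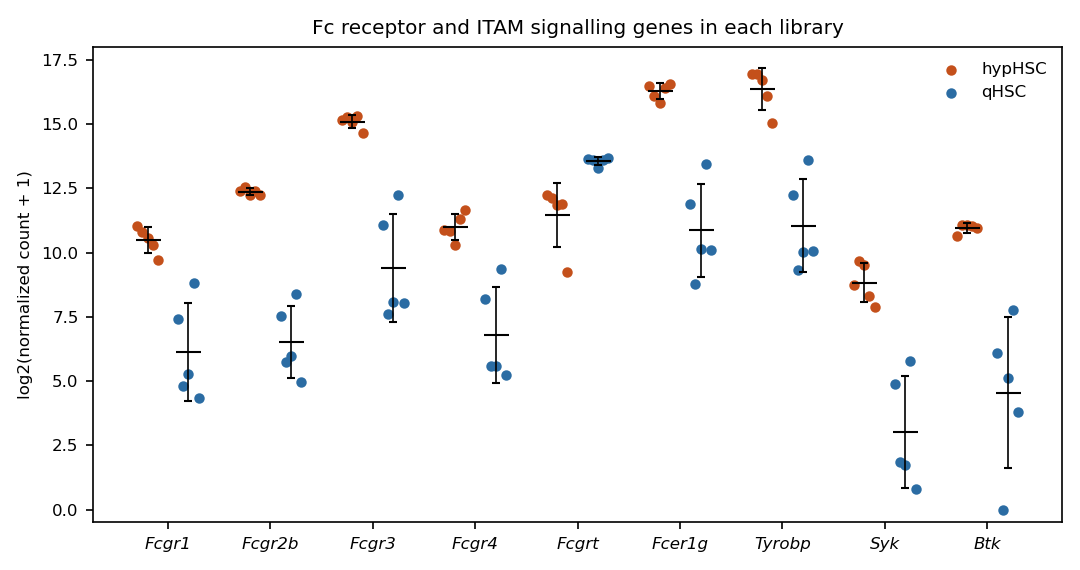
Log2(normalized count + 1) of the 9 genes in each of the 5 hypHSC and 5 qHSC libraries, drawn in the order 1 to 5, with the group mean and SD as black bars. The qHSC points of every gene except *Fcgrt* spread widely, with qHSC 1 and 4 on top, while *Fcgrt* runs the other way and hypHSC 5 lies far below the other hypHSCs.

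*Fcgr3* (chromosome 1, 170878738 to 170886972, minus strand) encodes the low-affinity activating receptor FcγRIII and was the most abundant Fcγ receptor. Its normalized counts were 36280.3, 39291, 34209.9, 40671 and 26016 in hypHSC 1 to 5, against 2135, 196, 272, 4862 and 261.5 in qHSC 1 to 5. Every hypHSC library lay at least 5.35-fold above the highest qHSC library, and qHSC 1 and 4 lay well above the other 3. The means were 35294 ± 5769 and 1545 ± 2027 (SD, n = 5 per group), and the log2 fold change was 5.68 (standard error 0.81, adjusted p = 0.000167), or 7.17 without qHSC 1 and 4.

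*Fcgr1* (chromosome 3, 96190225 to 96201287, minus strand), the high-affinity receptor FcγRI, had 2106, 1799, 1508, 1244 and 845 normalized counts in the hypHSC libraries and 171, 27.3, 37.8, 452 and 19.5 in qHSCs. The gap between the groups was narrow, since the lowest hypHSC library (hypHSC 5) was 1.87-fold above qHSC 4. On the log2 scale it was higher in hypHSCs by 4.34 (standard error 0.77, adjusted p = 0.000754).

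*Fcgr4* (chromosome 1, 170846489 to 170857330, plus strand), which encodes FcγRIV, had 1896, 1835.5, 1263, 2509 and 3234 normalized counts in the hypHSC libraries and 289, 46.9, 47.2, 655 and 36.7 in qHSCs. Its order within the hypHSCs differed from that of *Fcgr1*: hypHSC 5 was highest for *Fcgr4* and lowest for *Fcgr1*. The log2 fold change of *Fcgr4* was 4.21 (standard error 0.74, adjusted p = 0.000775), and the lowest hypHSC library was 1.93-fold above the highest qHSC library.

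*Fcgr2b* (chromosome 1, 170788136 to 170804116, minus strand), the inhibitory receptor, was the most even of the 9 across hypHSCs, with 5343, 6085, 4853, 5343 and 4811 normalized counts. The qHSC libraries held 186, 52.0, 61.4, 335 and 30.0. The highest hypHSC value was 1.26 times the lowest, and the lowest was 14.3-fold above the highest qHSC library, the widest such gap among the 9 genes. The means were 5287 ± 514 and 133 ± 129 (SD, n = 5 per group), 39.7-fold apart. The fitted log2 fold change, a difference of mean log2 values, was 5.85 (standard error 0.55, adjusted p = 9.73e-06). DESeq2 on recovered reads gave 5.31. *Fcgr2b* and *Fcgr3* share sequence: of the stretches of 59 bases, the read length, in the canonical transcripts, 139 of 1487 in *Fcgr3* (9.35%) also occur in *Fcgr2b*, and 539 of 3345 in *Fcgr2b* (16.1%) occur in *Fcgr3* or in other genes. The gene Gm38204 covers 6.06% of the exon bases of *Fcgr2b*, and the libraries do not keep strand. How reads from shared stretches were counted is not given in the sources used, so these shares do not bound the error. *Fcgr3* had far more counts than *Fcgr2b*, so misplaced reads would weigh more on *Fcgr2b*.

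*Fcer1g* (chromosome 1, 171057143 to 171061918, minus strand), the FcRγ chain that carries the ITAM for the activating receptors, had 91897, 69956, 57637, 85999.9 and 97274 normalized counts in the hypHSC libraries and 3829, 436, 1121, 11070.0 and 1086 in qHSCs. The groups were 5.21-fold apart at their nearest libraries. Its log2 fold change was 5.41 (standard error 0.71, adjusted p = 9.42e-05).

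*Tyrobp* (chromosome 7, 30113207 to 30117002, plus strand), the other ITAM adaptor, had 127029.5, 125903, 108607, 70679 and 33759 normalized counts in the hypHSC libraries and 4871, 637, 1038, 12443 and 1077 in qHSCs. hypHSC 4 and 5 were low, and the highest hypHSC library held 3.76 times the lowest. *Tyrobp* was higher in hypHSCs by 5.30 on the log2 scale (standard error 0.76, adjusted p = 0.000171).

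*Syk* (chromosome 13, 52737201 to 52802827, plus strand), the kinase that docks on the phosphorylated ITAM, was the lowest of the 9, with 424, 823, 738, 316 and 237 normalized counts in hypHSCs. In qHSCs it had 29.0, 2.56, 2.36, 53.9 and 0.75, which are 32, 3, 3, 63 and 1 reads, so that qHSC 2, 3 and 5 were at or under the floor. The fitted rise, 5.82 on the log2 scale (standard error 0.92, adjusted p = 0.000372), rests on low counts in qHSCs.

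*Btk* (chromosome X, 133443083 to 133483894, minus strand), the Tec family kinase that acts beside Syk, had 1589, 2141, 2175, 2095 and 1989 normalized counts in hypHSCs. In qHSCs it had 67.0, 0, 33.85, 219 and 12.7. The hypHSC values were nearly as even as those of *Fcgr2b*, with a highest-to-lowest ratio of 1.37, while qHSC 2 had no read. Its fitted log2 fold change was 6.40 (standard error 1.13, adjusted p = 0.000754).

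*Fcgrt* (chromosome 7, 44742417 to 44753246, minus strand), the FcRn heavy chain, was the only one of the 9 that was lower in hypHSCs. It had 4821, 4439, 3669, 3813 and 605 normalized counts in the hypHSC libraries and 12840.4, 12275, 9896, 12293 and 13024 in qHSCs. The qHSC libraries were even, qHSC 1 and 4 did not stand out, and the lowest of them was 2.05-fold above the highest hypHSC library. The means were 3469.6 ± 1668 and 12066 ± 1257 (SD, n = 5 per group), 3.48-fold apart. By limma the change was -2.09 on the log2 scale (standard error 0.49, adjusted p = 0.00469), -1.53 without hypHSC 5, and -2.04 without qHSC 1 and 4 (adjusted p = 0.0297).

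**Figure D2:**
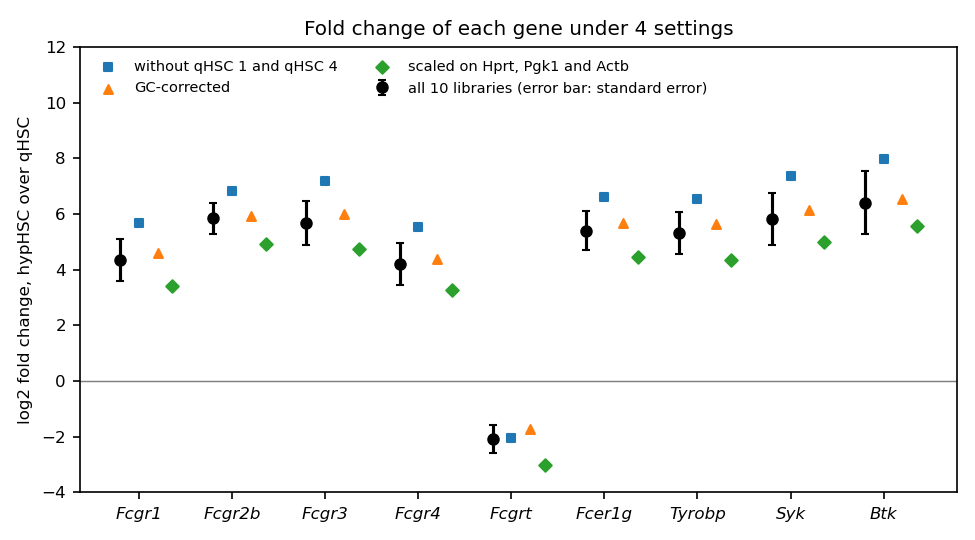
Log2 fold change of each gene, hypHSC over qHSC, from all 10 libraries (black, with the limma standard error), without qHSC 1 and 4 (squares), after correction for GC content (triangles) and with libraries scaled on *Hprt*, *Pgk1* and *Actb* (diamonds). The 8 genes called higher stay between 3.28 and 7.99 under these settings and *Fcgrt* between -3.02 and -1.74.

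Levels of different genes were compared per length, as FPKM (fragments per length of exon and per depth of the library on genes with a symbol). The length was that of all annotated exons of a gene. It was 5854 bases for *Fcgr2b*, against 3403 in its canonical transcript, while both were 1279 for *Fcgr4*. The order of genes with close FPKM, and ratios to *Fcgr2b*, depend on this choice, and other lengths were not tried. In hypHSCs the order was *Tyrobp* (3365 ± 1609, SD, n = 5), *Fcer1g* (1640.2 ± 217), *Fcgr3* (275 ± 56.2), *Fcgr4* (39.1 ± 9.65), *Fcgr2b* (21.7 ± 3.10), *Fcgrt* (17.3 ± 8.58), *Btk* (15.2 ± 2.77), *Fcgr1* (10.5 ± 3.88) and *Syk* (1.26 ± 0.731). With these lengths, the ranges of neighbors overlapped between *Tyrobp* and *Fcer1g* and along the run from *Fcgr2b* to *Fcgr1*. They were apart at the other steps. Both adaptors were among the most abundant transcripts of hypHSCs, *Tyrobp* at rank 10 and *Fcer1g* at rank 27 of 23225 genes by mean FPKM.

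In qHSCs the FPKM order was *Tyrobp* (181 ± 227), *Fcer1g* (93.1 ± 118), *Fcgrt* (74.7 ± 5.68), *Fcgr3* (15.4 ± 20.2), *Fcgr4* (5.17 ± 6.45), *Fcgr1* (1.25 ± 1.63), *Fcgr2b* (0.701 ± 0.677), *Btk* (0.652 ± 0.869) and *Syk* (0.0546 ± 0.0720). Only *Fcgrt* and *Fcgr3*, among neighbors, had ranges that did not overlap. Within single libraries, *Fcgr3* was above *Fcgr4* and *Fcgr4* above *Fcgr1* in 5 of 5, and *Fcer1g* was above *Fcgrt* in 2 of 5, qHSC 1 and 4. The place of *Tyrobp* and *Fcer1g* at the top rests on qHSC 1 and 4: in qHSC 2, 3 and 5, *Tyrobp* had 28.3, 49.5 and 44.6 FPKM against 75.6, 65.5 and 74.7 for *Fcgrt*. By mean FPKM *Fcgr2b* stood above *Fcgr1* in hypHSCs and below it in qHSCs, but the latter order also rests on qHSC 1 and 4. In qHSC 2, 3 and 5 *Fcgr2b* had 0.269, 0.341 and 0.144 FPKM and *Fcgr1* 0.237, 0.352 and 0.157.

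The inhibitory receptor was then set against each activating receptor within the same library, a log2 difference of normalized counts that does not depend on how libraries are scaled. Of the 4 differences compared (two-sided exact permutation tests, adjusted over the 4), 2 differed between the groups. *Fcgr2b* relative to *Fcgr1* was 1.88 ± 0.44 in hypHSCs and 0.38 ± 0.53 in qHSCs (SD, n = 5 per group), a shift of 1.502 (standard error 0.31, exact permutation p = 0.00794, adjusted p = 0.0159). In single libraries, counts of *Fcgr2b* were 2.54 to 5.69 times those of *Fcgr1* in hypHSCs and 0.742 to 1.91 times in qHSCs.

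*Fcgr2b* relative to *Fcgr4* was 1.37 ± 0.54 in hypHSCs and -0.27 ± 0.55 in qHSCs, a shift of 1.64 (standard error 0.34, exact permutation p = 0.00794, adjusted p = 0.0159). The nearest libraries were close, with 0.57 in hypHSC 5 and 0.37 in qHSC 3. For both differences qHSC 4 was the lowest of the qHSCs and qHSC 1 the next. Without these libraries, the shifts were 1.15 and 1.29 (exact permutation p = 0.0357 for each, the smallest that 5 libraries against 3 allow, adjusted p = 0.0714).

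*Fcgr2b* relative to *Fcgr3*, the receptor that shares part of its sequence, was -2.73 ± 0.18 in hypHSCs and -2.89 ± 0.85 in qHSCs. The shift of 0.17 (standard error 0.39, exact permutation p = 0.667, adjusted p = 0.889) was smaller than the spread between qHSC libraries, whose values ran from -3.85 in qHSC 4 to -1.89 in qHSC 2 and enclosed all 5 hypHSC values. Per length of all annotated exons, the 3 activating receptors together were 13.6 to 16.95 times *Fcgr2b* in hypHSCs, and 30.3, 12.1, 13.0, 38.6 and 23.2 times in qHSC 1 to 5. *Fcgr3* made up 75.2% to 88.6% of the activating FPKM in hypHSCs and 58.8% to 71.5% in qHSCs. The sum of activating receptors over *Fcgr2b* overlapped between the groups, so the balance depended on which activating receptor was taken.

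The ITAM adaptors were compared in the same way. *Fcer1g* relative to *Tyrobp* was -0.08 ± 1.02 in hypHSCs and -0.19 ± 0.27 in qHSCs (difference 0.10, standard error 0.47, exact permutation p = 0.889, adjusted p = 0.889). The values were -0.47, -0.85, -0.91, 0.28 and 1.53 in hypHSC 1 to 5, so the counts of *Tyrobp* relative to those of *Fcer1g* were lower in hypHSC 4 and 5 than in hypHSC 1, 2 and 3. Per length, *Tyrobp* was above *Fcer1g* in 4 of 5 hypHSC libraries, all but hypHSC 5. In qHSCs they lay between -0.55 and 0.11.

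**Figure D3:**
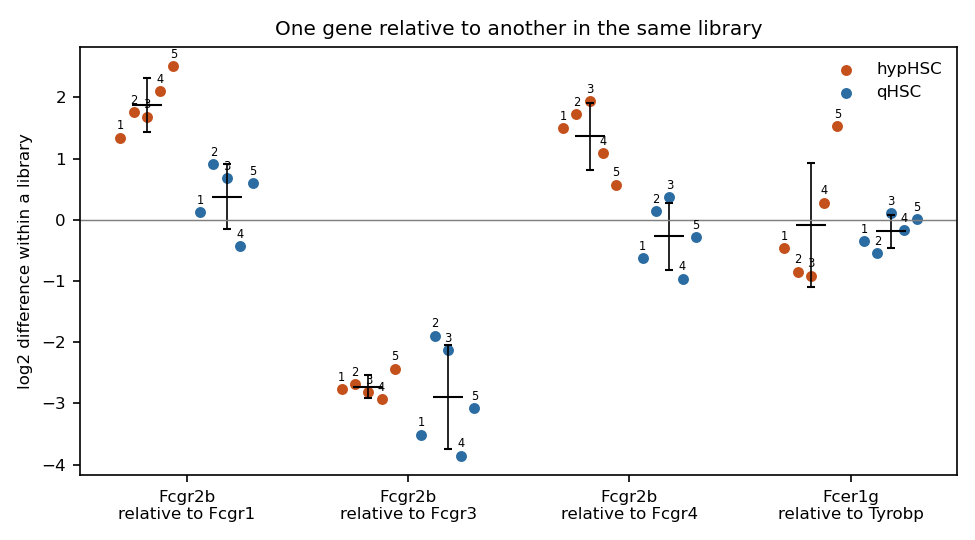
Log2 difference of normalized counts between 2 genes in the same library, for 5 hypHSCs and 5 qHSCs (numbers are the library numbers), with group mean and SD. *Fcgr2b* relative to *Fcgr1* and to *Fcgr4* does not overlap between the groups, *Fcgr2b* relative to *Fcgr3* overlaps, and hypHSC 4 and 5 leave the other hypHSCs for *Fcer1g* relative to *Tyrobp*.

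Macrophage markers moved with 8 of the 9 genes across qHSCs and between the groups, but not with all 8 within hypHSCs. There, hypHSC 5 had the lowest marker sum. It was lowest for *Fcgr1*, *Fcgr2b*, *Fcgr3*, *Tyrobp* and *Syk* but highest for *Fcgr4* and *Fcer1g*, and *Btk* was lowest in hypHSC 1. In qHSCs, qHSC 4 was highest and qHSC 1 next for each of *Fcgr1*, *Fcgr2b*, *Fcgr3*, *Fcgr4*, *Fcer1g*, *Tyrobp*, *Syk* and *Btk*, as for the summed core macrophage markers. The mean of qHSC 1 and 4 over that of the other 3 was 9.72 for the marker sum, 5.46 for *Fcgr2b*, 8.45 to 14.4 for *Fcgr1*, *Fcgr3*, *Fcgr4*, *Fcer1g*, *Tyrobp* and *Btk*, 21.9 for *Syk*, and 1.07 for *Fcgrt*. Per 1000 counts of the core macrophage markers, *Fcgr3* had 24.0 to 31.5 in hypHSCs and 23.8 to 42.7 in qHSCs, and *Fcgr2b* had 3.79 to 4.44 and 2.95 to 10.1.

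*Fcgr1* and *Fcgr4*, per 1000 core macrophage counts, were lower in hypHSCs (0.780 to 1.51 and 0.986 to 2.98) than in qHSCs (2.15 to 5.29 and 4.05 to 9.09). The lysozyme gene *Lyz2* made up 63.1% to 68.3% of the marker sum in hypHSCs and 24.5% to 35.02% in qHSCs. With *Lyz2* left out of the sum, the ranges of both genes overlapped between the groups (2.46 to 4.15 against 3.08 to 7.01, and 2.67 to 9.40 against 5.81 to 12.0), and *Fcgr3* was higher in hypHSCs (71.5 to 91.8 against 36.6 to 58.7). The share of macrophage RNA in the group differences was not tested.

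In hypHSCs, markers of every other cell type checked summed to less than those of core macrophages. The 9 resident Kupffer cell markers, with *Clec4f*, *Timd4* and *Vsig4* written first, summed to 35502.5 to 63093 in hypHSCs and 47076 to 123167 in qHSCs, highest in qHSC 4 and 1. *Id3* alone had a mean of 55139 in qHSCs and 23820.1 in hypHSCs, the largest part of the sum. *Id3* and *Slc40a1* were called lower in hypHSCs, and *Vsig4*, *Cd5l*, *Folr2* and *Nr1h3* higher. The 10 neutrophil markers (*S100a8*, *S100a9*, *Ly6g* first) summed to 1861 to 8053 in hypHSCs and 12.0 to 392 in qHSCs, with 4 of 4 tested higher. Mast cell and basophil markers (*Cpa3*, *Mcpt4*, *Tpsb2* first) summed to at most 157, with the FcεRI subunit genes *Fcer1a* and *Ms4a2* at 0 in all 10 libraries. B cell markers (among them *Cd79a* and *Cd79b*, with *Pax5* at 0 in all libraries) summed to at most 381, and T and NK cell markers (*Cd3d*, *Cd3e*, *Cd3g* first) to at most 780.2. Dendritic cell (*Flt3*, *Zbtb46*, *Xcr1* first), sinusoidal endothelial (*Stab2*, *Stab1*, *Lyve1* first) and hepatocyte lists (*Alb*, *Apoa1*, *Apob* first) overlapped between the groups in their sums. The largest part of the dendritic cell sum was *Bst2*, with a mean of 16129.5 in hypHSCs and 16350.9 in qHSCs. Of the tested genes of these lists, in the same order, 4 of 9, 3 of 10 and 0 of 10 were called higher in hypHSCs, and 1, 4 and 1 lower. Of all tested genes, 17.8% were called higher and 21.7% lower.

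**Figure D4:**
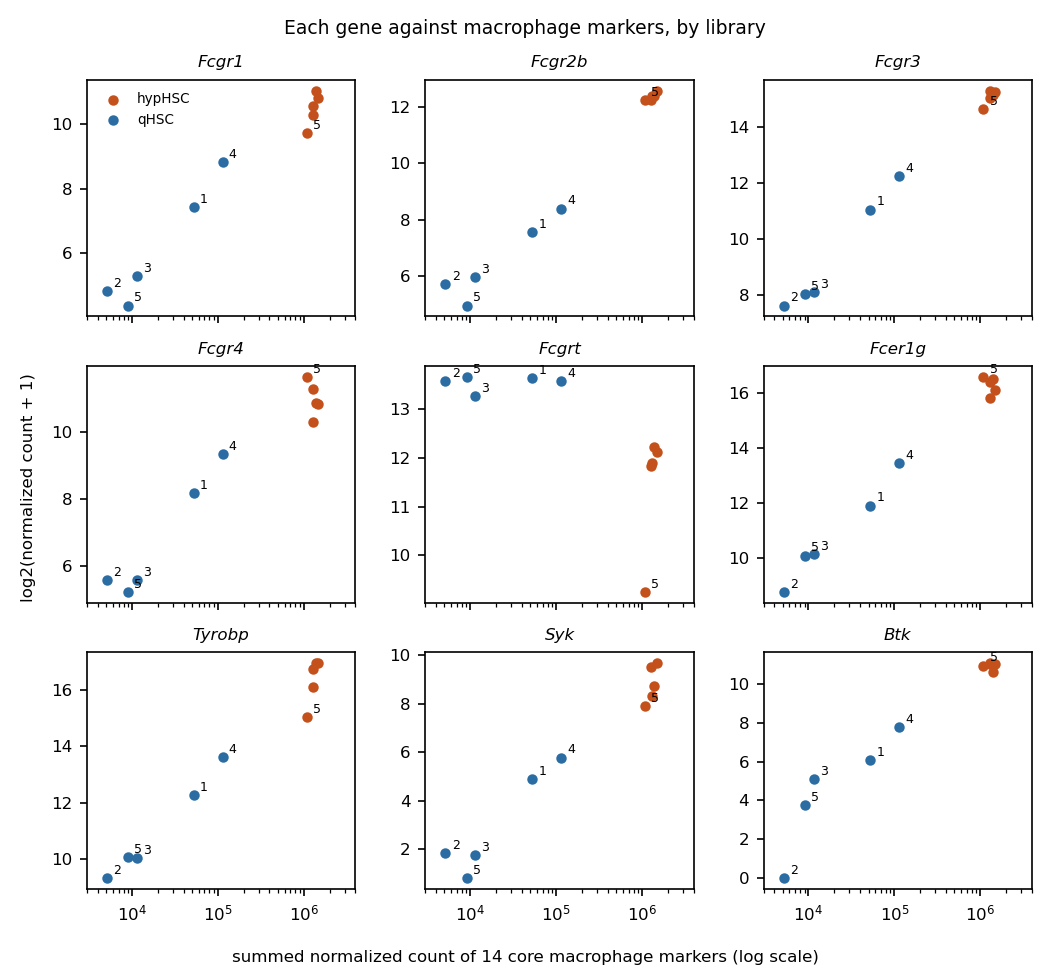
Log2(normalized count + 1) of each gene against the summed normalized count of 14 core macrophage markers (log axis) in each library (qHSCs and hypHSC 5 numbered). For 8 genes qHSC 1 and 4, which have the highest marker sums of the qHSCs, lie between the other qHSCs and the hypHSCs, while *Fcgrt* is flat across qHSCs and lower in hypHSCs.

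The departure of hypHSC 5 moved with the GC content of the genes. Across 14234 tested genes with a known transcript, the log2 value of hypHSC 5 minus the mean of the other 4 hypHSCs had a Spearman correlation of -0.346 with GC content (a description across genes of the same libraries), with a median of 0.43 in the fifth of genes with the lowest GC and -1.18 in the fifth with the highest. *Fcgrt* (GC 55.9%), *Tyrobp* (55.5%) and *Syk* (54.8%) departed by -2.78, -1.64 and -1.17. *Fcgr2b* (44.9%) and *Btk* (46.8%) departed by -0.16 and 0.0035, and *Fcgr4* (47.9%) by 0.83. *Fcer1g* (52.3%), above the median GC content of tested genes (49.0%), departed upward by 0.37, and *Fcgr3* (48.7%) departed by -0.53. After a correction for GC content in each library, chosen after the data had been seen, the departures were -1.51 for *Fcgrt*, -0.45 for *Tyrobp*, 0.01 for *Syk*, 1.14 for *Fcgr4*, 1.28 for *Fcer1g* and 0.69 for *Fcgr3*, so that the last 3 lay further from the other hypHSCs than before. *Fcgrt* was still called lower (log2 fold change -1.74, adjusted p = 0.000528).

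The rest of the pathway was read from lists of genes by role. Of 22 receptors that signal through Fcer1g or Tyrobp, 17 were tested and 15 were called higher, none lower, with a median log2 fold change of 5.18. The largest rises were those of *Trem2* (10.06, standard error 0.75), a lipid-sensing DAP12 partner, with 23323 ± 3631 normalized counts in the hypHSC libraries and 38.3 ± 39.9 in qHSCs, of *Clec4d* (9.61, standard error 0.67), a C-type lectin that uses the FcRγ chain, and of *Clec5a* (6.69, standard error 0.42), another DAP12 partner. *Siglech* (4.04, adjusted p = 0.0553) and *Klrk1* (1.05, adjusted p = 0.365) did not pass the test. Without qHSC 1 and 4 all 17 were called higher.

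Of 18 genes listed as inhibitory receptors with ITIMs, all were tested and 16 were called higher, none lower, with a median log2 fold change of 5.04. These genes were not searched for the ITIM, and some of them, such as *Lilrb4b*, may lack the motif. *Lilrb4a* (6.82, standard error 0.62) and *Lilrb4b* (6.82, standard error 0.67), near-identical neighbors whose reads may be split between them, had 104062 ± 25386 and 88429.7 ± 25558 normalized counts in hypHSCs against 1466 ± 1755 and 1358 ± 1745 in qHSCs. *Clec4a2*, a C-type lectin with an ITIM, rose by 6.52 (standard error 1.01). The list of receptors that use the adaptors and the list drawn up as inhibitory had similar shares called higher, 15 of 17 and 16 of 18, so *Fcgr2b* was not alone in its rise. Without qHSC 1 and 4 all 18 genes of the second list were called higher.

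Of 12 other Fc and Fc-like receptors only 5 were tested, and 3 were called higher. *Fcrls*, a scavenger relative of the Fc receptors, had 283 ± 197 normalized counts in the hypHSC libraries and no read in any qHSC library (at least 114-fold higher, against 3 reads in each qHSC library). *Fcrl1*, an Fc receptor-like gene best known in B cells, had 499 ± 282 and 24.5 ± 23.1, and *Fcrlb* 29.2 ± 8.59 and 0.684 ± 1.53. *Pigr*, which carries IgA and IgM across epithelia, had a log2 fold change of -0.89 (adjusted p = 0.15), and the cytosolic Fc receptor gene *Trim21* one of -0.79 (adjusted p = 0.325). Of the 7 not tested, *Fcrla* reached 90 reads in a library and the others at most 9.

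The kinases were divided. Of 14 kinases besides *Syk* and *Btk*, all of the Src, Syk and Tec families except *Csk*, 10 were tested, 5 were called higher and 1 lower, with a median of 1.11. *Tec* rose by 5.91 (standard error 0.78), and *Fgr*, a Src kinase of myeloid cells, by 3.50 (standard error 0.61). *Lyn*, the Src kinase with the highest mean among them, had 5583 ± 2477 normalized counts in the hypHSC libraries and 1226 ± 405 in qHSCs and was also called higher. *Yes1*, which many tissues use, had a log2 fold change of -3.72 by limma (adjusted p = 0.0166), which missed the threshold without qHSC 1 and 4 (adjusted p = 0.0507), and its groups overlapped. *Lyn* and *Yes1* were chosen after their values had been seen. *Csk*, the kinase that restrains Src kinases, had 1749 ± 698 and 1378 ± 129 (0.24, adjusted p = 0.486).

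Of 26 adaptors and effectors downstream of Syk, 19 were called higher and 3 lower, with a median of 3.95. *Blnk* (8.62, standard error 0.96) and *Lat2* (7.30, standard error 0.23), scaffolds that Syk phosphorylates, and *Vav3* (6.15, standard error 0.80), an exchange factor for small GTPases, rose most. *Lat2* had 10590.8 ± 1984 normalized counts in the hypHSC libraries and 67.0 ± 18.1 in qHSCs. The falls were those of *Vav2* (-3.18, standard error 1.15), *Pik3r1* (-1.70, standard error 0.24), a regulatory subunit of PI3-kinase, and *Plcg1* (-3.07, standard error 1.01), named after its values had been seen. Falls were no more common than among all tested genes, of which 21.7% were called lower. For phospholipase Cγ the genes parted, since *Plcg2*, the form of hematopoietic cells, had 975 ± 71.7 in hypHSCs and 44.4 ± 50.8 in qHSCs (5.20, adjusted p = 0.000138), and *Plcg1* had 12.5 ± 13.2 and 52.1 ± 13.1. Without qHSC 1 and 4, 19 genes were called higher and 1, *Pik3r1*, lower, while *Vav2* (-3.11, adjusted p = 0.129) and *Plcg1* (-2.95, adjusted p = 0.107) kept folds of similar size but missed the threshold.

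Of 12 phosphatases and ubiquitin ligases that limit ITAM signals, 8 were called higher and none lower, with a median of 1.95. *Dok2* (4.90, standard error 1.12), an adaptor that binds RasGAP, *Ptpn6* (4.46, standard error 0.65), which encodes the phosphatase SHP-1, and *Inpp5d* (4.13, standard error 0.74), which encodes SHIP-1, the phosphatase that the ITIM of FcγRIIb recruits, had the largest rises. The groups overlapped for *Dok2* and not for *Ptpn6* or *Inpp5d*. *Inpp5d* had 1442 ± 947 normalized counts in the hypHSC libraries and 109 ± 135 in qHSCs. The broadly used relative SHP-2 gene *Ptpn11* had 199 ± 53.1 and 269.6 ± 61.5 (-0.45, adjusted p = 0.211).

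**Figure D5:**
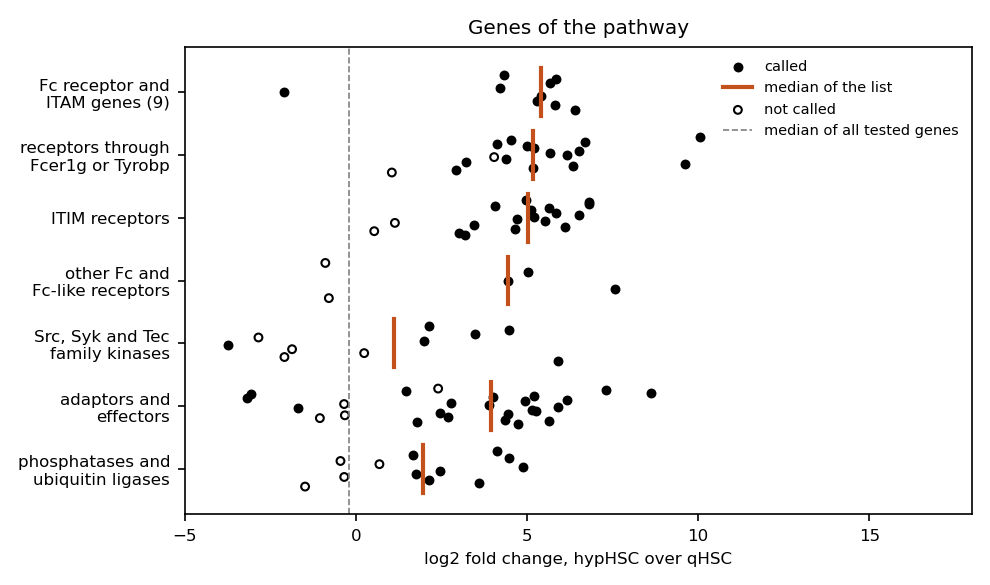
Log2 fold change, hypHSC over qHSC, of every tested gene of the 9-gene set and of 6 lists of the pathway (filled, called; open, not called), with the list median in orange and the median of all tested genes (-0.20) dashed. The medians of the lists of receptors that use the adaptors and of genes listed as ITIM receptors are 5.18 and 5.04, while the genes of the lists of kinases, adaptors and phosphatases reach from below 0 to above 4.

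The promoters of these genes were searched for GAGGAAG on either strand, the core of the site bound by PU.1, the myeloid factor encoded by *Spi1*, which itself had 1041 ± 318 normalized counts in the hypHSC libraries and 43.4 ± 61.9 in qHSCs. In RefSeq promoters on GRCm38.p6 (250 bases before to 50 after the start), the letters occurred for *Fcgr1*, *Fcgr3*, *Fcgr4* and *Btk* and not for *Fcgr2b*, *Fcgrt*, *Fcer1g* or *Syk* (*Tyrobp* was not searched). They occurred for 15.4% of all 27025 genes and in 13.6% of all 32851 promoters. The 3 activating receptors and *Btk* carry it as CTTCCTC on the gene's strand, first base at -56, -7, -23 and 8 from the start. The stretch from 75 bases before to 25 after the start is shown for these 4 and for *Fcgr2b* and *Fcgrt*, the genes set against them, with the match in capitals. A match describes letters and is no evidence of binding.
Fcgr1 (chr3:96293945-96294044, minus strand): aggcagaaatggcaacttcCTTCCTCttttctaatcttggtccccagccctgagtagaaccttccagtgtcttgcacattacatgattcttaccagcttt
Fcgr3 (chr1:171059379-171059478, minus strand): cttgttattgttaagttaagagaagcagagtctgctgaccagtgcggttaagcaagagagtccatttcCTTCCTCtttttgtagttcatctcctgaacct
Fcgr4 (chr1:171018851-171018950, plus strand): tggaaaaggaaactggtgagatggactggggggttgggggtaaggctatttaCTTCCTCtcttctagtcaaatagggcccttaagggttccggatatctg
Btk (chrX:134583116-134583215, minus strand): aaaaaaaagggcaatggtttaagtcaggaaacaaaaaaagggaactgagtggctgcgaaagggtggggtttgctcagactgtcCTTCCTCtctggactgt
Fcgr2b (chr1:170976047-170976146, minus strand): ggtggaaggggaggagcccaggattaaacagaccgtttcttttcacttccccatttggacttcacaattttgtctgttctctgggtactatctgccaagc
Fcgrt (chr7:45103798-45103897, minus strand): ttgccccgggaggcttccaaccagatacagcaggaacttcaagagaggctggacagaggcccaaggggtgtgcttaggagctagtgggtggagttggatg

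Within the groups, a few genes followed the receptors closely over the 10 libraries. After subtraction of each group mean, the 3 genes of 10791 (mean of at least 100 normalized counts) with the highest Pearson correlation to *Fcgr2b* were *Cd300a* (0.981), an ITIM receptor, *Tnfsf13os* (0.978), which lies opposite *Tnfsf13* and cannot be told from it without strand, and *Il10* (0.977). For *Fcer1g* they were *Alox5ap* (0.994), *Clec12a* (0.988) and *Fyb* (0.986), and for *Fcgrt* *Cers4* (0.995), *Plekhf1* (0.993) and *Slc25a4* (0.993). These points share 10 libraries, and for *Fcgr2b* and *Fcer1g* the qHSC part of the pattern is the excess in qHSC 1 and 4. For *Fcgrt* the pattern is mostly the low value of hypHSC 5 (605 normalized counts, against 3669 to 4821 in the other hypHSCs).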

How the data were processed

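Poly(A)-primed, amplified cDNA of sorted cells was sequenced at both ends without strand. The authors mapped the reads to mm39 (GRCm39) with STAR, counted them per gene with featureCounts (Subread 1.5.0, FAST DB annotation) and divided them by DESeq2 size factors, and the deposited unit is this signal, the normalized count. Multiplying by a size factor gave whole reads for 100% of values. Depth, FPKM (GENCODE exon lengths), DESeq2 and edgeR used these recovered reads, and all else the values as deposited.

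Named genes that reached 10 normalized counts in 5 or more libraries were compared as log2(normalized count + 1) with limma 3.58.1 (intensity trend, R 4.3.3), and p was adjusted by Benjamini-Hochberg across these 14630 genes. The added 1 understates fold changes of low genes. The fit compares means of log2 values, not logs of means. For each gene of the set called higher, it gave a larger fold than DESeq2 on recovered reads. The gap was smallest for *Fcgr2b* (5.85 against 5.31) and largest for *Btk* (6.40 against 4.91). A call needed a log2 fold change of 1 or more in size with an adjusted p no higher than 0.05. Single values were compared with exact two-sided permutation tests. The fit was tested on simulated data. Alternatives changed the pseudocount (0.5, 5), filter, scaling, tool (DESeq2 1.42.0, edgeR 4.0.16), replicate block, diet weeks and libraries. Leaving out qHSC 1 and 4 and the GC correction (lowess, span 0.3) were added after the data had been seen.

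The genes and lists were chosen with earlier results of these data known. The text names all 9 genes, up to 3 called genes per direction of each pathway list (mean of at least 100 normalized counts; lists with at most 5 called in full), the 3 markers written first per cell type, and the 3 genes most correlated with *Fcgr2b*, *Fcgrt* and *Fcer1g*. Genes of these lists that the rule would name and the text leaves out are not reported here.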

Additional observations from a re-analysis of the deposited data

Results flagged for a closer look

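Each of the 9 genes and the 4 within-library differences was checked in both groups for a library far from its nearest neighbor (Dixon's criterion, above 0.71 of the range for 5 libraries). Of 26 groups checked, 3 had such a library, where chance gives about 1 in 20. *Fcgrt* in hypHSC 5 was at 9.24 on the log2 scale, a gap of 0.868 of the hypHSC range. *Fcgrt* in qHSC 3 was at 13.27, below the other qHSCs, but the whole qHSC range was narrow (1.32-fold from lowest to highest). *Btk* in hypHSC 1 was at 10.63, below the other hypHSCs by 0.716 of their range.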

How the results depend on the processing

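Under all 24 alternatives run for the fold changes, the 9 genes were called in the same direction. Their log2 fold changes ranged from 3.28 to 7.99 for the 8 higher genes, lowest for *Fcgr4* with scaling on *Hprt*, *Pgk1* and *Actb*, and from -3.02 to -1.53 for *Fcgrt*. The median of all tested genes moved from -0.20 to -1.12 with that scaling and to -0.54 with the same total. *Fcgr2b* relative to *Fcgr1* and to *Fcgr4* kept its direction but missed the threshold with the hypHSCs at 12 weeks only (1.72 and 1.47) and without qHSC 1 and 4 (1.15 and 1.29), where the exact permutation p was 0.0357, the smallest these library numbers allow, and the adjusted p 0.0714. With the replicate block the shifts were 1.502 and 1.64, and the sign-flip test of 5 pairs cannot go below 0.0625. With each library left out in turn they were 1.30 to 1.64 and 1.46 to 1.83. After GC correction they were 1.36 (exact permutation p = 0.00794) and 1.57 (exact permutation p = 0.0159), with an adjusted p of 0.0317 for each. The groups then overlapped for *Fcgr2b* relative to *Fcgr4*, with 0.26 in hypHSC 5 and 0.42 in qHSC 3. *Fcgr2b* relative to *Fcgr3* changed sign without passing any threshold: -0.36 without qHSC 1 and 4, -0.069 after GC correction, and -0.072 (without qHSC 4) to 0.42 with 1 library left out. *Fcer1g* relative to *Tyrobp* was -0.30 to 0.31 with 1 library left out, negative only without hypHSC 5. The cause of these changes was not tested.

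Replicate numbers were not taken as pairs: deviations of same-numbered libraries correlated by 0.00815 to 0.129, and 1 of 5 hypHSC libraries was closest to its own number. The block gave 5786 called genes against 5779. With 5 preparations per group, 3 qHSC libraries at or under 3 reads limit the fold of *Syk*.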
